A study of Mus musculus with 12 samples.

Results

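Small RNAs of oocytes that lack Khdc3 were compared with those of wild type oocytes. The 8 libraries compared, of 12 in the series, were chosen by their genotype labels alone: 4 labelled Khdc3-null and 4 labelled wild type from wild type ancestors. Both groups are mouse oocytes picked by hand from ovaries that had received no stimulation, and no treatment is named for either. The remaining 4 libraries, from wild type mice descended from Khdc3-null grandfathers, entered the fit only to estimate the spread. The labels name no strain or age, and whether each library stands for a different animal is not stated, so a p-value measures only the spread between libraries. Libraries are numbered within a group, and Khdc3-null replicate 1 is the library titled 11. The Khdc3 mRNA and the mRNA markers of oocytes were not measured, so the genotype and the cell type could not be checked against them.

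Khdc3 codes for a protein of the subcortical maternal complex, an assembly that the oocyte stores for the early embryo. Small RNA libraries of oocytes hold several unlike kinds of molecule. MicroRNAs (miRNAs) are cut from hairpins and repress mRNAs that match their seed. PIWI-interacting RNAs (piRNAs) silence transposons in the germ line. Fragments of tRNA and rRNA come from the translation machinery, and tRNA fragments are also abundant in mammalian sperm.

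Levels are in RPM, reads scaled to 1000000 mapped reads per library. The 8 libraries held 2918620 to 7294254 such reads, of which 87.8% to 92% fell on listed features. The table lists 2030 features, of which 1889 were abundant enough to test: 1038 miRNA features, 457 piRNA loci, 389 tRNA loci and 5 rRNA forms. Reads are given per hairpin or locus, so the arms of a hairpin are not separated. Less RNA per oocyte and fewer oocytes cannot be told apart from RPM.

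The mature sequences of the miRNAs on which the results turn are shown with their seed, bases 2 to 8, in capitals. They are RefSeq entries on GRCm38.p6, and 918 of the 1123 listed miRNA features matched a RefSeq hairpin by symbol. The let-7 members are shown because they share a seed but their hairpins did not all stand alike. Those of let-7a to let-7e averaged lower in Khdc3-null replicates 2 to 4 than in wild type, that of let-7i was level and that of miR-98 higher.
let-7a-5p: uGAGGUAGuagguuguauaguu
let-7b-5p: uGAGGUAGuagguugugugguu
let-7c-5p: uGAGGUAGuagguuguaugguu
let-7d-5p: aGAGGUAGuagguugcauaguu
let-7e-5p: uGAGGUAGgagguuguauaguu
let-7i-5p: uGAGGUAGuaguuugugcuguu
miR-98-5p: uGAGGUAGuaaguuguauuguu
The next 3 belong to the hairpins Mir6384 and Mir6947, which had the smallest p-values.
miR-6384: gCUUUCCUacuguuucccug
miR-6947-5p: cAUCCAGUggagaggcucgug
miR-6947-3p: gCAGCCUCuuucccuggcauca
The last pair shares a seed, but only the hairpin of the first stood higher in Khdc3-null libraries.
miR-107-3p: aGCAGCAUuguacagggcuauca
miR-103-3p: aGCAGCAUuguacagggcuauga

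With all 8 libraries no small RNA separated the genotypes past the adjusted threshold. No feature passed a Benjamini-Hochberg adjusted p of 0.05 in limma (0 of 1889, 0%), and limma-voom also gave 0. At an unadjusted p under 0.05 there were 95 features, or 5.03% of those tested, near what that threshold allows by chance. Of these, 29 were higher (1.54%) and 66 lower (3.49%) in Khdc3-null oocytes. That split depended on the scaling: 36 of 84 were higher with TMM factors and 37 of 84 with median-of-ratios factors, but 19 of 95 in limma-voom. The groups did not overlap in 60 features (3.18%), 22 higher (1.16%) and 38 lower (2.01%). Chance alone separates 4 libraries from 4 in a fraction of 0.0286 of features, and 3 from 4 more often. When Khdc3-null replicate 1 was left out, 1 feature passed (0.0529%), 125 reached the unadjusted threshold (6.62%), 33 of them higher (1.75%), and 173 did not overlap (9.16%), 73 of them higher (3.86%). Unadjusted calls numbered 174 (9.21%) with limma-voom and quality weights. They numbered 169 (8.95%) without both replicate 1 and the descendants, a setting chosen after seeing the data. Of the unadjusted calls, 50 were shared between both fits, which is 52.6% of the first set and 40% of the second. No feature was at 0 in all libraries of a genotype and read in all 4 of the other, and 1842 of the 2030 were read in all 8.

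Khdc3-null replicate 1 stood apart before any comparison. Its median correlation across features with the other 7 libraries was 0.921 on log2(RPM + 1), against 0.953 to 0.963 for the others. These correlations are descriptive, since libraries share the features and their abundance. It lay at least 2-fold above every other library in 18 features and at least 2-fold below in 119, where the others had 2 to 6 and 1 to 19. It also had the fewest features with any reads, 1880 against 1943 to 1972 in the other 7, at 3802126 mapped reads. Khdc3-null replicate 2 was sequenced less deeply, to 2918620 mapped reads, and showed 1950.

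The balance of the small RNA classes was nearly the same in both genotypes. rRNA fragments took 56.0%, 56.2%, 55.6% and 57.0% of the listed reads in wild type replicates 1 to 4, and 56.7%, 56.3%, 55.5% and 56.2% in Khdc3-null replicates 1 to 4. The shares of piRNA loci were 20.0%, 19.6%, 20.4% and 19.0% in wild type and 17.7%, 19.1%, 21.0% and 19.8% in Khdc3-null libraries. miRNA features held 15.8%, 16.6%, 17.0% and 16.2% against 16.6%, 16.7%, 15.8% and 16.0%. The groups overlapped in every class, and replicate 1 had both the lowest piRNA share and, at 9.05%, the highest tRNA share of the 8. tRNA loci held 6.99% to 8.21% in wild type libraries and 7.69% to 7.98% in the other Khdc3-null libraries. In exact two-sided permutation tests over 6 shares the lowest adjusted p was 0.857 with all 8 libraries and 0.8 without replicate 1. The smallest unadjusted p that these designs allow is 0.0286, so no share could pass on its own after adjustment.

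**Figure D1:**
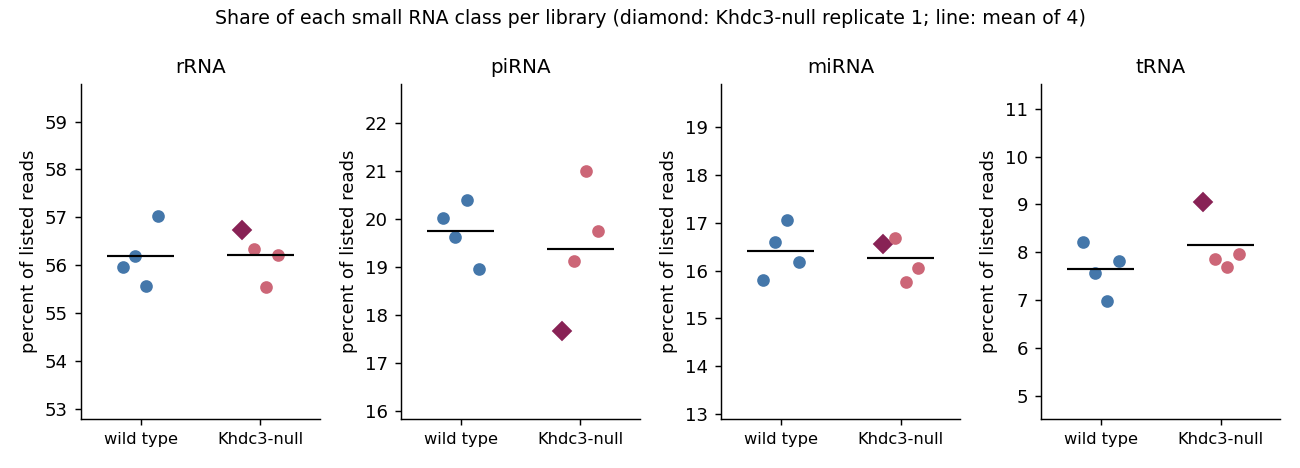
Percent of the listed reads on rRNA, piRNA, miRNA and tRNA features in each library, on vertical axes of equal length that do not start at 0. Points are libraries, lines are means of 4, and the diamond is Khdc3-null replicate 1, with 17.7% on piRNA and 9.05% on tRNA.

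The rRNA forms moved least. How reads that match several rRNA forms were assigned is not given, so 45S is not read as the level of a precursor. The 45S form stood at 330540, 346587, 341678 and 345182 RPM in wild type and 320066, 340610, 341413 and 341186 RPM in Khdc3-null libraries. Replicate 1 was the lowest of the 8, and the log2 difference between genotypes was -0.02 (95% interval -0.24 to 0.20), or 0.00 without it. For 28S, the large-subunit RNA, the levels were 104504 to 108475 RPM in wild type and 103832 to 107515 RPM in Khdc3-null replicates 2 to 4, with replicate 1 at 117410 RPM. The log2 differences of 28S and 18S were 0.03 and -0.06. The sign of the 45S difference was positive with TMM or median-of-ratios factors, at 0.03 on either. The least certain form was 5S, with 2633, 2131, 2122 and 2464 RPM in wild type against 3930, 2731, 2723 and 2331 RPM (log2 0.30, 95% interval -0.25 to 0.86). Here too replicate 1 was the highest, and the groups overlapped. For 5.8S the log2 difference was 0.16 (95% interval -0.06 to 0.37), also with overlap. None of the 5 forms reached the unadjusted threshold with or without it, and their 95% intervals all lay within 2-fold.

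By the share of intervals within 2-fold, the piRNA loci were the next most stable class. Of the loci at a mean of 30 RPM or more over the 8 libraries, 365 of 374 (97.6%) had a 95% interval within 2-fold, against 875 of 985 (88.8%) for features of all classes. An interval within 1.5-fold was found for 278 of them (74.3%), against 505 of all features (51.3%). Without that limit on abundance, an interval within 2-fold was found for 409 of 457 piRNA loci (89.5%) and 1062 of 1889 features (56.2%). The median log2 difference over the 457 tested loci was -0.04, beside -0.05 over all features, and 0.01 beside 0.01 when replicate 1 was left out. Between replicates the median SD of log2(RPM + 1) was 0.15 in wild type and 0.19 in Khdc3-null libraries, and 0.15 in the latter without replicate 1.

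Loci named after genes and loci named by chromosome band could be followed separately. Of the gene-named loci, 7 of 242 (2.89%) reached the unadjusted threshold, and of the band-named loci 13 of 215 (6.05%), beside 5.03% of all features. Of these 13, 12 were lower, where 3.49% of all features were lower. The band-named loci held 5.31%, 5.29%, 5.63% and 5.21% of listed reads in wild type and 4.59%, 4.95%, 5.53% and 4.98% in Khdc3-null libraries, an overlap of the groups with an exact permutation p of 0.143. Over all piRNA loci 20 (4.38%) reached the unadjusted threshold, 18 of them lower, and these belonged to 15 name stems. When replicate 1 was left out 7 did (1.53%, beside 6.62% of all features), all 7 from the first set, and 6 were lower. Of these, 5 were band-named, or 2.33% of the band-named loci. Features of 1 stem are not independent, as their log2 differences spanned a median of 0.08 in the 151 stems with several tested features.

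The most abundant piRNA loci illustrate this. pi-Wdfy3.2 stood at 4559, 4043, 4325 and 3945 RPM in wild type and 3861, 4094, 4451 and 4434 RPM in Khdc3-null libraries, and the groups overlapped (log2 0.00, 95% interval -0.19 to 0.18). pi-Lpp.1 was as level, at 5143 to 5684 RPM against 4739 to 6143 RPM (log2 0.01). pi-D10Wsu102e.2, the locus with the most reads, stood lower at 6669, 8222, 9792 and 7737 RPM against 5686, 6468, 7514 and 6160 RPM. Its groups overlapped as well (log2 -0.32, SE 0.13, limma adjusted p = 0.945).

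The piRNA loci of smallest p were all lower in Khdc3-null oocytes, and none passed. 10-qC1-2617.1 stood at 145, 159, 182 and 174 RPM in wild type and 118, 110, 141 and 118 RPM in Khdc3-null libraries, without overlap (log2 -0.43, SE 0.15, limma adjusted p = 0.830). Its neighbour in name, 10-qC1-2617.2, stood at 423 to 657 RPM against 530 to 877 RPM in wild type. 17-qA3.3-27363.1 did not overlap either, at 694 to 820 RPM in wild type and 588 to 662 RPM in Khdc3-null libraries (log2 -0.26). pi-Ccrn4l.1 stood at 288, 378, 456 and 364 RPM against 197, 262, 348 and 207 RPM, where replicate 3 lay within the wild type range (log2 -0.57, SE 0.19). Its partner pi-Ccrn4l.2 had a log2 difference of -0.56, and 3-qA3-2052.1 one of -0.45.

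**Figure D2:**
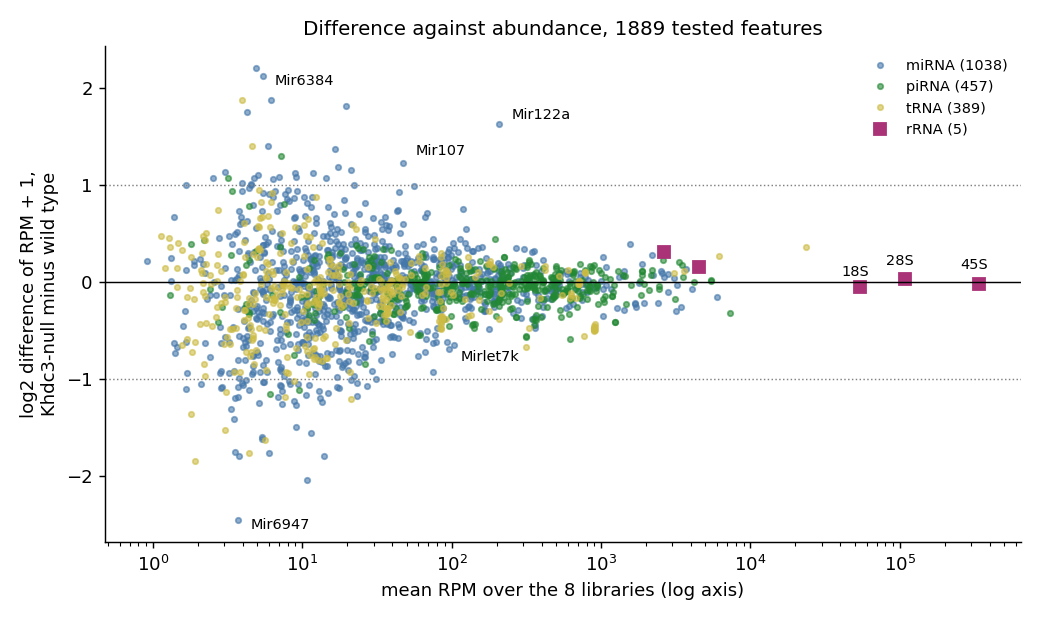
Log2 difference of RPM + 1 (Khdc3-null minus wild type) against mean RPM over the 8 libraries on a log axis, for the 1889 tested features coloured by class. Dotted lines mark 2-fold differences. The differences narrow with abundance, and the 5 rRNA forms lie close to 0.

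The miRNA features varied more between libraries than the piRNA loci. At 30 RPM or more, 382 of 463 (82.5%) had a 95% interval within 2-fold and 174 (37.6%) within 1.5-fold. Over all tested miRNA features, scarce ones included, the interval lay within 2-fold in only 453 (43.6%). Of the 1038 tested, 57 (5.49%, beside 5.03% of all features) reached the unadjusted threshold, 24 higher and 33 lower. Without replicate 1, 68 did (6.55%, beside 6.62%), with 30 in common. Their median log2 difference was -0.05, and 0.03 without replicate 1.

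Mir6384 was the 1 feature that passed in any of these fits, and only when replicate 1 was left out. This hairpin lies within Gpc3, a glypican gene, in an intron on the minus strand at chrX:52378121-52378181 (mm10). It stood at 1.59, 1.69, 0.988 and 1.11 RPM in wild type and at 5.00, 13.0, 10.1 and 10.3 RPM in Khdc3-null libraries. The groups did not overlap, and replicate 1 was the lowest Khdc3-null library. In wild type only replicate 2 reached the filter level of 1.61 RPM, so among the 8 the hairpin was tested through the Khdc3-null libraries. The log2 difference was 2.12 (SE 0.39, limma adjusted p = 0.147) with all 8 libraries and 2.37 (SE 0.38, limma adjusted p = 0.0473) without replicate 1. That call was lost when the descendants were left out of the fit as well. The wild type levels are low but above the 3 reads that a count of 0 allows, which equal 0.416 to 0.741 RPM in those libraries, counting error only. Wild type replicate 3, at 0.988 RPM, lies closest to its floor of 0.741 RPM.

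Mir6947 lies in an Actr8 intron (a chromatin remodelling gene) and showed the reverse order at an equally low level. Its position is the plus strand at chr14:29988888-29988952. Its levels were 8.82, 5.23, 8.15 and 5.83 RPM in wild type and 0.789, 0.343, 0.584 and 0.137 RPM in Khdc3-null libraries. Replicates 1, 2 and 4 were at or under the level of 3 reads in their libraries and replicate 3 was just above its own, 0.438 RPM (log2 -2.45, SE 0.56, limma adjusted p = 0.389). Without replicate 1 the adjusted p was 0.602 in limma. No Khdc3-null library reached the filter level of 1.61 RPM, so among the 8 the hairpin was tested through the wild type libraries.

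Mir107 is cut from an intron of Pank1, a pantothenate kinase gene of coenzyme A synthesis, at chr19:34820687-34820773 on the minus strand. It stood at 36.2, 19.9, 28.2 and 24.6 RPM in wild type and at 101, 79.1, 55.2 and 37.0 RPM in Khdc3-null libraries. All Khdc3-null libraries lay above all wild type libraries, the lowest by less than 1 RPM, and replicate 1 was the highest (log2 1.23, SE 0.32, limma adjusted p = 0.585; 1.01 without replicate 1). Its mature 3p miRNA differs from miR-103-3p by C22G, counted from the 5′ end with the base of miR-107-3p first. The hairpins of miR-103 did not separate the groups. Mir103-1 stood at 208, 160, 207 and 220 RPM against 180, 195, 173 and 220 RPM (log2 -0.05, 95% interval -0.37 to 0.28), and Mir103-2 at 152 to 166 RPM against 132 to 172 RPM (log2 -0.10). How reads that match several of these hairpins were assigned is not given in the sources used here.

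The other miRNAs of smallest p did not pass with or without replicate 1. Mir6978, intronic to C3 of the complement system, stood at 1028, 1222, 1262 and 1133 RPM in wild type and at 798, 943, 967 and 937 RPM in Khdc3-null libraries, with replicate 1 lowest and no overlap (log2 -0.35, SE 0.11, limma adjusted p = 0.830). Mir8113, in an exon of the lymphocyte receptor gene Cd27, was also without overlap, at 366 to 442 RPM against 279 to 359 RPM (log2 -0.45). Higher levels were seen for Mir6539, at 8.39 to 19.1 RPM in wild type and 20.6 to 36.8 RPM in Khdc3-null libraries (log2 1.15), and for Mir6930, at 9.70 to 22.3 RPM against 20.6 to 35.8 RPM (log2 1.00), where the groups overlapped. Mir7224 stood at 0.145 to 3.75 RPM against 3.36 to 12.1 RPM with overlap. Mir296, Mir7235 and Mir654 had log2 differences of -0.96, -1.76 and -1.24, each without overlap.

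Levels were steadiest where the 95% interval stayed closest to 0 at both ends, and abundant hairpins are given beside them. Mir143hg and Mir17hg, 2 of the 4 host transcripts listed among the miRNA features, had log2 differences of -0.01 (95% interval -0.28 to 0.26) and -0.03. Mir351, a granulosa cell miRNA of the X-linked Mir322 cluster, stood at 715, 763, 1017 and 666 RPM in wild type and 691, 830, 767 and 801 RPM in Khdc3-null libraries (log2 -0.02). Mir3081, which had the most reads, stood at 5784 to 6752 RPM against 5438 to 6035 RPM (log2 -0.15), and Mir10b at 3032 to 5812 RPM against 3435 to 4436 RPM (log2 -0.07). Each of these groups overlapped.

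**Figure D3:**
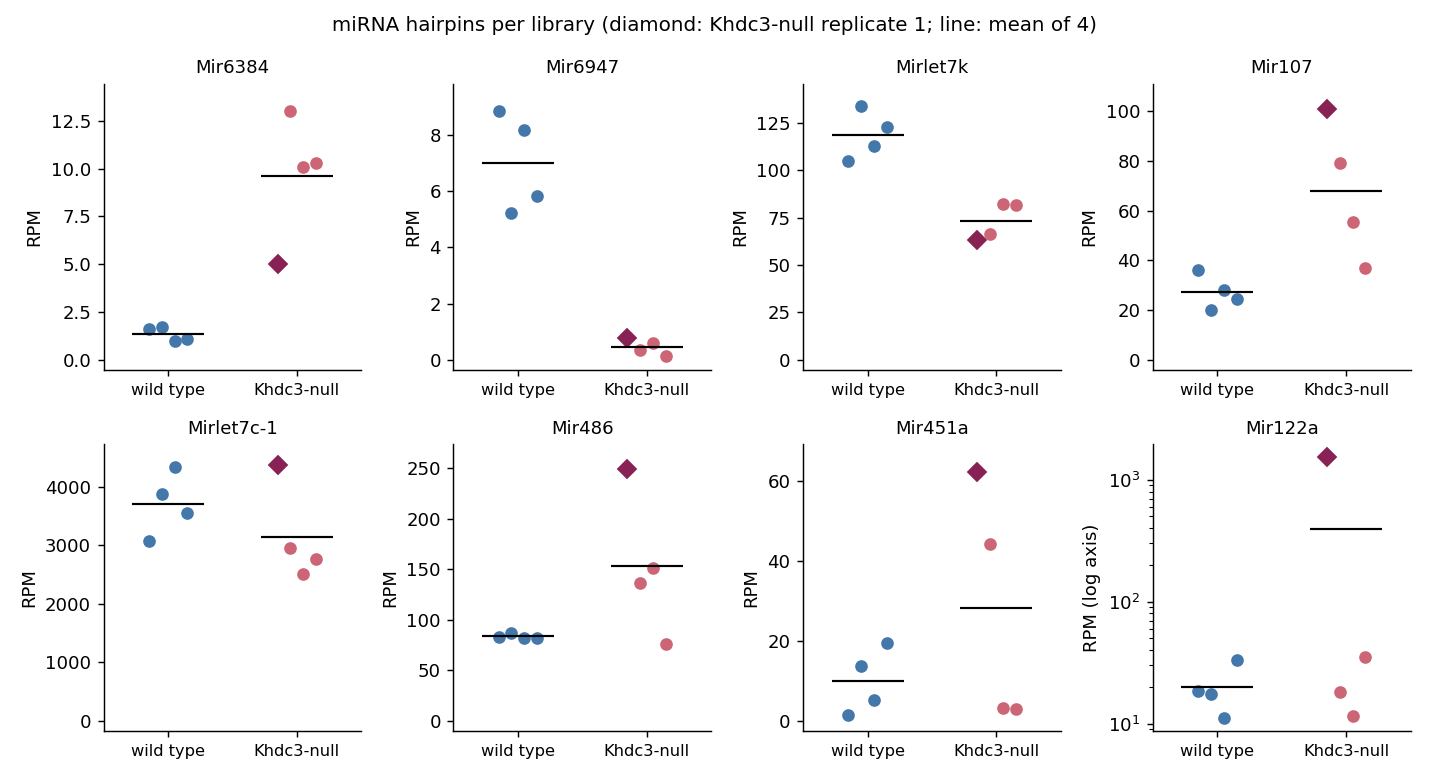
RPM of 8 miRNA hairpins in each library, with a log axis for Mir122a. Points are libraries, lines are means of 4 and the diamond is Khdc3-null replicate 1. That library lies with the other Khdc3-null libraries for Mirlet7k, below them for Mir6384, and above them for Mirlet7c-1, Mir486, Mir451a and Mir122a.

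let-7 miRNAs repress growth genes and time development. In Khdc3-null oocytes 12 of the 14 tested hairpins stood lower and 1 reached the unadjusted threshold, at a median log2 difference of -0.23 beside -0.05 over all miRNA features. Without replicate 1, 12 were lower, 10 of them at the unadjusted threshold (background 4.87% lower), with a median of -0.36 beside 0.03. No member passed the adjusted threshold in either fit. The median was -0.18 with TMM and -0.17 with median-of-ratios factors. Mirlet7c-1 stood at 3067, 3874, 4343 and 3541 RPM in wild type and at 4363, 2949, 2512 and 2762 RPM in Khdc3-null libraries. Replicates 2 to 4 were thus below every wild type library and replicate 1 above every one. The log2 difference was -0.26 (SE 0.16, limma adjusted p = 0.945), and -0.43 (SE 0.13, limma adjusted p = 0.602) without replicate 1.

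Replicate 1 was the highest Khdc3-null library in 11 of the 14 let-7 members and the highest of all 8 libraries in 6. The other Khdc3-null libraries lay below all wild type libraries in 6 members, beside 5.29% of all features. The summed level of the family was 16829, 20792, 22959 and 21222 RPM in wild type and 22926, 16826, 14388 and 15639 RPM in Khdc3-null libraries, so that wild type replicate 1 and Khdc3-null replicate 2 were nearly equal. Mirlet7e stood at 297 to 369 RPM in wild type and 203 to 245 RPM in Khdc3-null replicates 2 to 4, with replicate 1 at 342 RPM. Members of near-identical sequence are not independent of each other.

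Several let-7 members did not follow this order. Mirlet7k stood at 105, 134, 113 and 123 RPM in wild type and at 63.1, 66.5, 82.4 and 81.6 RPM in Khdc3-null libraries, with replicate 1 the lowest (log2 -0.69, SE 0.16, limma adjusted p = 0.389). Mirlet7i was level, at 428 to 614 RPM against 449 to 497 RPM (log2 -0.08). Mir98 and Mirlet7j stood higher, with log2 differences of 0.26 and 0.62, both short of the unadjusted threshold. Of Mir98 the levels were 51.6 to 77.6 RPM in wild type and 63.8 to 83.9 RPM in Khdc3-null libraries, with overlap.

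No member of the other miRNA groups passed the adjusted threshold either. Over all features 5.03% reached the unadjusted threshold, 1.54% higher and 3.49% lower, so a single member there does not set a group apart. Of all tested miRNA features 457 were higher and 581 lower. Of the 15 members of the miR-17 to miR-92 cluster and its paralogs, which promote proliferation, 9 were higher and 6 lower (median log2 0.08), and Mir20a reached the unadjusted threshold. The miR-290 and miR-302 clusters, of early embryos, had 11 of 14 members lower (median -0.17, and -0.02 without replicate 1). Mir292 was the 1 member at the unadjusted threshold, at 37.3 to 53.6 RPM in wild type and 12.6 to 38.6 RPM in Khdc3-null libraries. Of the members listed for the imprinted Dlk1-Dio3 cluster 24 were higher and 26 lower (median -0.07), with 1 and 2 at the unadjusted threshold. Mir654, named above, lies on chromosome 12 like the listed Mir370, but was not on that list. In the Sfmbt2 cluster 7 were higher and 9 lower (median -0.18, but 0.25 without replicate 1), with 1 and 1 at the unadjusted threshold. In an X-linked gonadal cluster 6 were higher and 15 lower (median -0.15). Without replicate 1 the last had 12 higher and 9 lower (median 0.02). Of its 21 members Mir465, Mir743 and Mir871 were lower at the unadjusted threshold, beside 3.49% of all features. Mir871 stood at 88.4, 84.1, 130 and 78.2 RPM in wild type and at 33.7, 31.9, 102 and 50.2 RPM in Khdc3-null libraries, where replicate 3 lay within the wild type range. The miR-200 and miR-183 families had a median of 0.07 over 8 members. miRNAs of lipid and glucose metabolism were higher in 22 and lower in 12 of 34 members (median 0.05), 1 in each direction at the unadjusted threshold. Mir107 was the higher one and Mir152, at 185 to 228 RPM against 137 to 163 RPM, the lower.

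Among the markers of other cells, Mir122a set replicate 1 apart. Mir122a, a miRNA of liver cells, stood at 18.5, 17.4, 11.1 and 33.0 RPM in wild type and at 1524, 18.2, 11.5 and 35.2 RPM in Khdc3-null libraries. Leaving replicate 1 out took its log2 difference from 1.62 to 0.07. Mir192, another miRNA of liver and gut, named after its values were seen, was also highest there, at 33.9 RPM against 1.46 to 16.3 RPM in the other 7. Its log2 difference between the groups was -0.46. Mir194-1 and Mir194-2, of the same list (lipid and glucose metabolism), had log2 differences of 0.93 and 0.05. Over the 22 markers of tissues absent from the ovary, 6 were higher and 16 lower (median -0.12), and the summed level was 1624 to 2101 RPM in wild type and 1660 to 2847 RPM in Khdc3-null libraries. Without Mir122a the other 21 summed to 1605 to 2068 RPM in wild type, 1323 RPM in replicate 1, the lowest of the 8, and 1649 to 1759 RPM in the other Khdc3-null libraries. Muscle Mir133b was read in all 8, at 731 to 967 RPM in wild type and 663 to 717 RPM in Khdc3-null libraries. Its groups did not overlap, as in 3.18% of all features (log2 -0.19, limma adjusted p = 0.945). Other muscle markers were scarcer, with wild type means of 133 RPM for Mir208a, 23.3 RPM for Mir133a-1 and 2.82 RPM for Mir206.

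Of the 4 listed erythrocyte miRNAs, Mir486 and Mir451a were high in part of the Khdc3-null libraries. Mir486 stood at 82.9, 87.0, 81.8 and 82.0 RPM in wild type and at 250, 136, 151 and 76.2 RPM in Khdc3-null libraries, with replicate 4 below all wild type libraries (log2 0.75, SE 0.33, limma adjusted p = 0.945). Mir451a stood at 1.45, 13.7, 5.19 and 19.4 RPM against 62.3, 44.2, 3.21 and 2.88 RPM, so that replicates 1 and 2 were the highest of the 8 and the groups overlapped. Mir451b, the most abundant of them, has the same position as Mir451a but on the opposite strand, and whether it marks the same cells was not tested. It stood at 166 to 268 RPM against 189 to 223 RPM (log2 -0.04), and Mir144 had a log2 difference of 0.14. The median of the 4 was 0.45, and 0.07 without replicate 1. They summed to 254 to 373 RPM in wild type and 303 to 507 RPM in Khdc3-null libraries, and none was at 0 in all libraries of a group. Of these sums Mir451b alone made up a mean of 217 RPM in wild type and 207 RPM in Khdc3-null libraries. The 12 granulosa cell miRNAs summed to 3853 to 5232 RPM against 3949 to 5213 RPM (5 higher, 7 lower, median -0.01). The 20 miRNAs of stroma and vessels summed to 14514 to 19433 RPM against 14867 to 17502 RPM (12 higher, 8 lower, median 0.04). The 11 leukocyte miRNAs summed to 906 to 987 RPM against 887 to 1202 RPM, lowest in replicate 1 (7 higher, 4 lower, median 0.17, and 0.10 without replicate 1). Of these 11, 3 reached the unadjusted threshold, beside 5.03% of all features. Mir142 was higher, at 16.3 to 43.0 RPM in wild type and 68.9, 81.5, 27.9 and 55.7 RPM in Khdc3-null libraries, as was Mir146, at 27.9 to 69.8 RPM against 59.6 to 112 RPM. Mir150 was lower, at 7.91 to 29.4 RPM against 4.21 to 9.25 RPM, and the groups overlapped in all 3. The part of these cells in the differences named above was not tested.

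More tRNA loci reached the unadjusted threshold when replicate 1 was left out. Of the 389 tested, 18 (4.63%) reached the unadjusted threshold with all 8 libraries, beside 5.03% of all features. Without replicate 1, 50 did (12.9%, 47 of them lower), with 13 in common, beside 6.62% of all features and 4.87% lower. Over all tested tRNA loci, 195 (50.1%) had a 95% interval within 2-fold with all 8 libraries and 173 (44.5%) without replicate 1. The share of loci at 30 RPM or more whose 95% interval lay within 2-fold went from 123 of 143 (86.0%) to 108 of 143 (75.5%). Their median SD between replicates was 0.26 in wild type, 0.33 in Khdc3-null libraries and 0.18 in the latter without replicate 1. The loci concerned came mostly from a few near-identical sets, where the triplet is the anticodon. Without replicate 1, 10 of 14 GlyGCC, 9 of 13 GluCTC, 8 of 16 AspGTC and 7 of 10 HisGTG loci were lower at the unadjusted threshold. In the GluCTC set 1 locus was higher. Such loci may share reads and are not treated as separate measurements, so sums over all loci of an amino acid are given next.

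**Figure D4:**
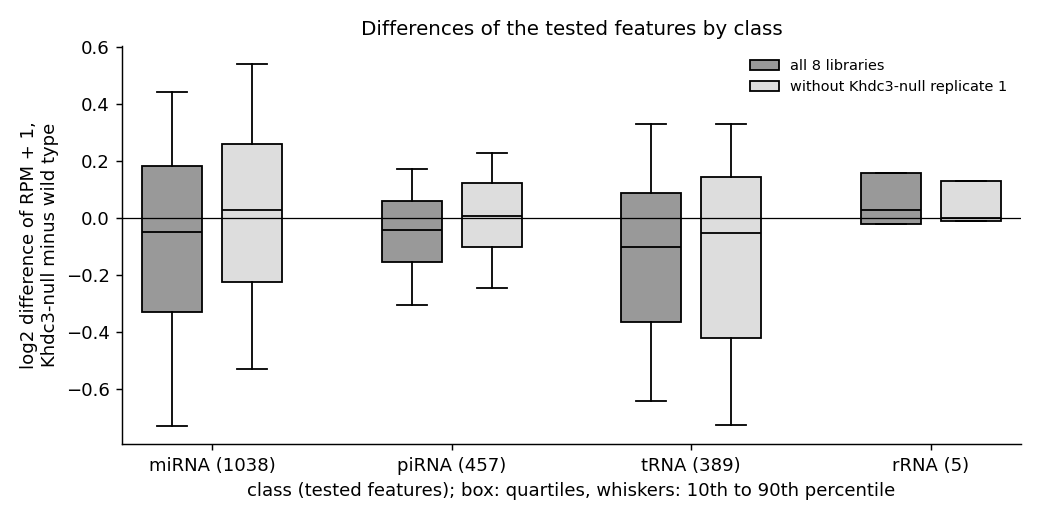
Log2 difference of RPM + 1 (Khdc3-null minus wild type) of the tested features by class, with all 8 libraries and without Khdc3-null replicate 1. Boxes are quartiles with the median, and whiskers run from the 10th to the 90th percentile over features. The piRNA and rRNA boxes are narrow, and the tRNA median is -0.10 with and -0.05 without replicate 1.

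Glycine tRNA, whose fragments are prominent in sperm, summed to 15137, 12445, 9467 and 18151 RPM in wild type and to 14996, 8705, 8352 and 9531 RPM in Khdc3-null libraries. Replicates 2 to 4 were near the lowest wild type library, and replicate 1 near the second highest. The ratio of means was 0.753 with all libraries and 0.642 without replicate 1 (exact permutation p of 0.2 and 0.0857). Of the 14 GlyGCC loci 13 had like levels, at means of 618 to 915 RPM, with log2 differences of -0.51 to -0.11.

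Glutamate tRNA differed widely between the Khdc3-null libraries themselves. Its sum was 5251, 5685, 6048 and 7798 RPM in wild type and 14398, 4735, 4776 and 4280 RPM in Khdc3-null libraries. Replicates 2 to 4 lay below every wild type library, while replicate 1 stood above all. The ratio of means went from 1.14 to 0.742 when replicate 1 was left out (exact permutation p of 1.00 and 0.0571).

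In aspartate and histidine tRNA replicate 1 was again the highest Khdc3-null library, but it lay within the wild type range. The aspartate sums were 924, 2056, 1725 and 2138 RPM in wild type and 1789, 1241, 914 and 1001 RPM in Khdc3-null libraries, with a ratio of 0.723, or 0.615 without replicate 1. Wild type replicate 1 was as low as the lowest Khdc3-null libraries. At the locus chr10.trna866-AspGTC, with 212, 463, 467 and 439 RPM against 265, 238, 207 and 238 RPM, that same library was set apart from its group (log2 -0.67, SE 0.24, limma adjusted p = 0.875). The histidine sums were 83.5, 138, 90.4 and 198 RPM against 132, 66.1, 44.6 and 60.5 RPM, with a ratio of 0.594, or 0.447 without replicate 1.

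Alanine tRNA went the other way. Its sum was 33435, 29215, 28808 and 23477 RPM in wild type and 31695, 36336, 36926 and 37073 RPM in Khdc3-null libraries, a ratio of 1.24 with all libraries and 1.28 without replicate 1 (exact permutation p of 0.0571 in both). Replicates 2 to 4 lay above every wild type library and replicate 1 within their range. Most of these reads were on 1 locus, chr13.trna71-AlaAGC, at 24684, 20898, 20633 and 16630 RPM against 23363, 26544, 27740 and 27521 RPM (log2 0.35, SE 0.21, limma adjusted p = 0.945). It alone held 23.5% to 33.8% of tRNA reads in wild type and 29.4% to 39.5% in Khdc3-null libraries. Methionine tRNA was level, at 7951 to 9755 RPM against 8088 to 11176 RPM (ratio 1.08). Over the 27 sums of amino acids and rRNA forms the lowest adjusted p was 0.675 in these exact permutation tests, and 0.579 without replicate 1. The smallest unadjusted p of these designs is 0.0286, so no sum could pass on its own after adjustment over 27. These adjusted values therefore cannot tell a steady sum from a changed one.

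**Figure D5:**
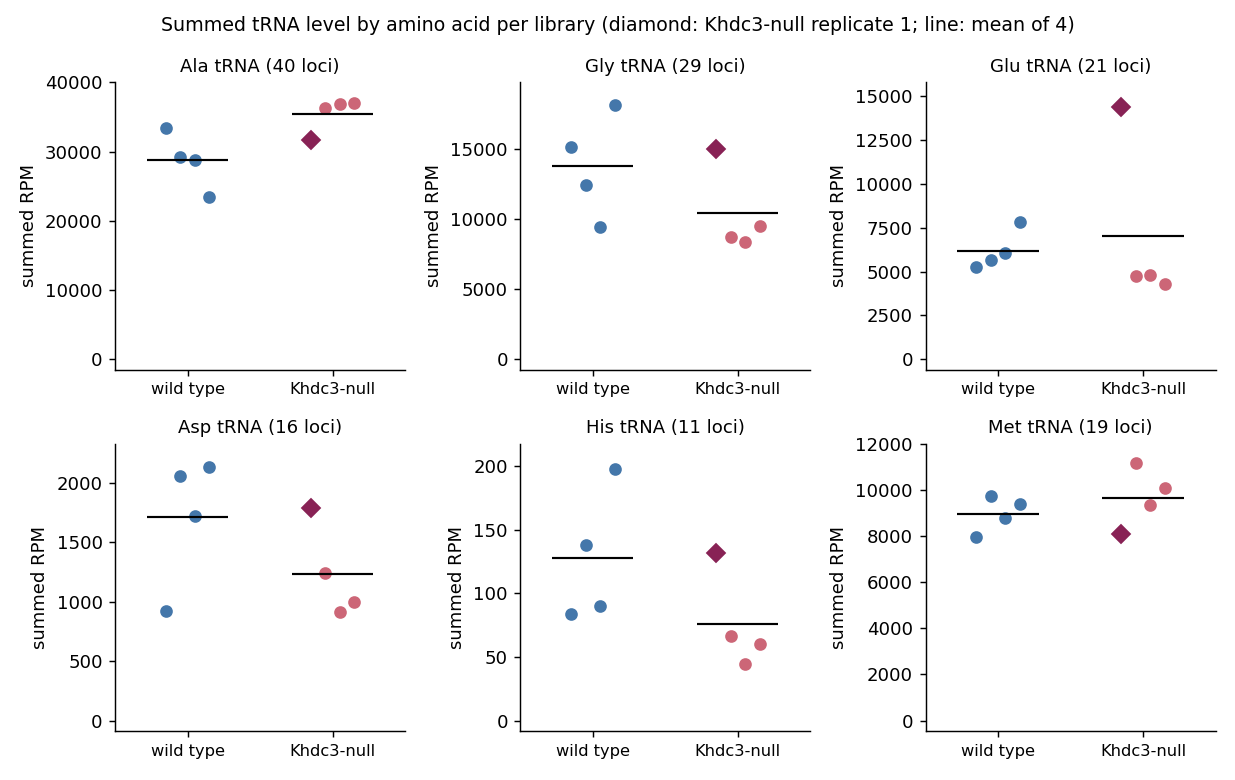
Summed RPM of the tRNA loci of 6 amino acids in each library. Points are libraries, lines are means of 4 and the diamond is Khdc3-null replicate 1. That library stands at 14398 RPM for glutamate, above the 4280 to 7798 RPM of the other 7.

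The single tRNA loci of smallest p were mostly scarce. chr13.trna981-IleTAT stood at 0, 0.154, 1.24 and 4.99 RPM in wild type and at 7.36, 6.51, 5.84 and 5.48 RPM in Khdc3-null libraries, without overlap (log2 1.87, SE 0.61, limma adjusted p = 0.830). chrX.trna463-LeuTAA stood at 0.145, 3.23, 4.20 and 7.49 RPM against 0, 0, 0.292 and 0 RPM, where a count of 0 allows up to 1.03 RPM in the shallowest of these libraries. chr13.trna104-ThrAGT and chr11.trna399-ThrAGT had log2 differences of -1.35 and -1.76, and chr3.trna282-GlyCCC, at 608 to 1172 RPM against 507 to 870 RPM, one of -0.56. Among the steadiest, chr8.trna788-MetCAT stood at 2733 to 3293 RPM against 2678 to 3554 RPM (log2 0.09, 95% interval -0.17 to 0.35). chr9.trna1100-AlaAGC stood at 457 to 555 RPM against 487 to 600 RPM (log2 0.06).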

How the data were processed

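The deposited table gives RPM per feature with 1 added to every value, found from the values, and 1 was subtracted here. Per the labels' protocols, RNA was isolated with the PicoPure kit and libraries were made with the NEXTFLEX small RNA kit. Per the submitters' processing notes, the authors aligned reads with Bowtie2 to mm10. The version, the counting and the treatment of reads with several matches are not given in the sources used here. After the subtraction 100% of values were whole multiples of 1 read within 0.01 reads, which gave the mapped reads per library.

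Features needed 1.61 RPM (10 reads in a library of median depth) in 4 or more of the 12 libraries. A scarce feature could therefore enter through the group where it was high. limma 3.58.1 (R 4.3.3) was fitted with a variance trend to log2(RPM + 1) of all 12 libraries with 3 group means, and p-values were Benjamini-Hochberg adjusted over 1889 features. The fit was checked on simulated data. Shares and sums were compared by exact two-sided permutation tests. Intervals are at 95%, and reads without molecular identifiers are not independent molecules, so floors of 3 reads cover counting error only. Named features are those past the threshold, the 12 miRNA, 6 piRNA and 6 tRNA features of smallest p, the rRNA forms, the 4 most abundant and 4 steadiest per class, up to 3 members per list and the 4 most moved by leaving out replicate 1. Others (Mir192, and members at the unadjusted threshold or apart from their family) were named after their values were seen. The comparison and the lists were chosen with earlier results of these data known.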

Additional observations from a re-analysis of the deposited data

Results flagged for a closer look

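In 256 groups of 4 libraries examined, 21 values lay farther from their group than Dixon's 95% limit allows, where chance flags about 1 in 20 groups. Of these, 11 were in Khdc3-null replicate 1. The groups included 4 features chosen because they moved most when that library was left out (Mir122a, Mir7050, Mir686 and Mir7074). Without them there were 18 such values in 248 groups, 9 of them in replicate 1. Its summed levels were flagged for alanine tRNA (31695 RPM), glutamate tRNA (14398 RPM), 45S rRNA (320066 RPM) and the markers of tissues absent from the ovary (2847 RPM). Mir122a made up most of the last sum, and the other 21 markers summed to 1323 RPM there, below the other 7 libraries. Its single features were Mir122a at 1524 RPM, chr11.trna399-ThrAGT at 3.95 RPM, Mir17hg at 442 RPM, Mir93 at 103 RPM, Mir181a-1 at 349 RPM, Mir216a at 215 RPM and Mir7050 at 3.16 RPM, where Mir7050 stood at 28.9 to 33.9 RPM in the other Khdc3-null libraries.

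Khdc3-null replicate 3 was apart for Mir686 (178 RPM), 3-qA3-2052.1 (377 RPM) and chrX.trna463-LeuTAA (0.292 RPM, with the other 3 at 0), and Khdc3-null replicate 2 for Mir370 (248 RPM). Wild type replicate 1 was apart for the arginine tRNA sum (1393 RPM) and chr10.trna866-AspGTC (212 RPM), wild type replicate 2 for Mir341 (553 RPM), wild type replicate 3 for Mir654 (33.1 RPM) and Mir143 (3483 RPM), and wild type replicate 4 for Mir133b (967 RPM).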

How the results depend on the processing

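The count of features past the adjusted threshold was 0 under each setting tried other than leaving out Khdc3-null replicate 1, which gave 1. Leaving out a library in turn gave 0 to 1 such features and 63 (without wild type replicate 2) to 125 at the unadjusted threshold. That second count was 174 with limma-voom and quality weights, and 169 without replicate 1 and the descendants together, a setting chosen after seeing the data. The median log2 difference of rRNA was 0.082 with median-of-ratios factors. As percent of mapped reads the rRNA share differed by -0.407 points, against 0.0214 of listed reads. With single libraries left out, the differences in share ranged from -0.351 to 0.0613 points for miRNA, -0.907 to 0.207 for piRNA, -0.389 to 0.412 for gene-named piRNA and -0.187 to 0.305 for rRNA. The log2 ratio of glutamate tRNA ranged from -0.43 (without Khdc3-null replicate 1) to 0.36, that of 45S from -0.037 to 0.00031 and that of 28S from -0.011 to 0.049. The 45S ratio was 0.027 with TMM and 0.034 with median-of-ratios factors, and the 18S ratio 0.0014 with the latter. The causes were not tested. The 24 named miRNA, piRNA and tRNA features of smallest p kept their direction in all 424 values from other settings, and 1 of these passed. They were chosen by their p in the same libraries that these settings use, so a kept direction is no independent support. piRNA loci at the unadjusted threshold numbered 6 without wild type replicate 2 and 35 without Khdc3-null replicate 3. edgeR and DESeq2 were planned for recovered reads and were not run. No paired analysis was possible because the labels give no replicate numbers.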
